A study of Mirounga angustirostris with 8 samples.

Results

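The mitochondrial carriers are the proteins that pass metabolites through the inner mitochondrial membrane, and the uncoupling proteins belong to the same family. Their genes were taken as every row of the count table whose symbol starts with SLC25A and a number, or is UCP1, UCP2 or UCP3, and whose counts summed over the 8 libraries to at least 80. Of the 24342 named rows, 48 had a matching symbol and 44 reached the sum, and these 44 genes are the members described here. All 48 symbols were found as protein coding genes in the RefSeq annotation of the northern elephant seal (NES, *Mirounga angustirostris*). The members just inside the sum were *SLC25A45* with 165 reads and *SLC25A41* with 168, and those just outside were *SLC25A47* with 57 and *SLC25A53* with 42. *UCP1* and *SLC25A31* had a count of 0 in every library.

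Each library was made from poly-A enriched RNA of the *longissimus dorsi*, a back muscle, of a wild adult female NES. The 4 pre-molt libraries (early molt in the labels) came from seals 5572, 5842, 6762 and C497, biopsied at most 5 days after they hauled out for the annual molt. The 4 post-molt libraries (late molt) came from seals 4448, 5572, 9678 and X410, biopsied a mean of 34 days later, before their return to sea. The comparison asks how muscle gene expression differs after a month of fasting and low activity on land. The seals of both groups were immobilized and sedated for sampling and were ashore and fasting, no animal received an experimental treatment, and no library from active seals at sea was part of the comparison. Within a group each library is a different seal, so the spread is between animals, whereas seal 5572 gave a library to both groups. Time ashore, fasting, inactivity and molting passed together and cannot be told apart. The study's methods state that the libraries were chosen as those of each condition with the most uniquely aligned reads, after others sequenced poorly from low-quality RNA.

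All members of the family share a fold of repeated membrane-spanning segments, and most exchange a solute of the mitochondrial matrix for one of the cytosol. In muscle they bring ADP and phosphate to ATP synthase and take ATP out, carry acylcarnitines to beta-oxidation, move reducing equivalents by the malate-aspartate shuttle, and supply the matrix with iron, NAD, coenzyme A and other cofactors. UCP1 dissipates the proton gradient as heat in brown fat. UCP2 and UCP3 resemble it in sequence, and UCP3 is found mainly in skeletal muscle, where its transcript is known to respond to fasting and fatty acids.

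The libraries held 37900665 to 56143099 counted reads pre-molt and 30771344 to 61222301 post-molt. They differed in how many genes were seen: of 14315 genes tested, 56 to 1119 were at 0 in a pre-molt library (most in seal 5842) and 3 to 2117 in a post-molt library (most in seal 9678, followed by 4448 with 1328). The muscle fiber markers summed to 206000 to 346800 CPM (counts per 1000000 reads) pre-molt and 200400 to 292200 post-molt, so that the defining markers of the labelled tissue were present in every library. Of the 10 tested, 2 had a positive fold change and 8 a negative one. The most counted, *MB* and *ACTA1*, differed in opposite directions. *ACTA1* was lower in every post-molt library (log2 fold change -0.93 ± 0.25, adjusted p = 0.1228 in edgeR and 0.004301 in DESeq2). *MB* was higher on average, with overlap (0.67 ± 0.23, adjusted p = 0.2482 in edgeR and 0.0297 in DESeq2). These CPM use library sizes scaled by TMM and are not corrected for gene length, so they compare libraries and not genes. In biopsies, fewer cells of a type and less RNA per cell cannot be told apart. Of the 10 fast fiber markers listed, the fast myosin heavy chains *MYH1*, *MYH2* and *MYH4* had no row under those symbols. The markers with a row summed to 7510 to 24250 CPM pre-molt and 4341 to 6460 post-molt. All 7 tested had a negative fold change, but the sums stood apart for different genes in different seals. Without *ACTN3* the other 6 summed to 18010 and 9922 CPM in pre-molt seals 5842 and C497 and to 833.2 and 498.7 CPM in pre-molt seals 5572 and 6762, within or near the 514.1 to 2023 CPM of the post-molt libraries. *ACTN3* was high in pre-molt seals 5572, 5842 and 6762 (6240 to 7642 CPM), while pre-molt seal C497 (3654 CPM) lay within the post-molt range of 3453 to 4453 CPM. Of the 8 fibroblast markers all had a negative fold change, with sums of 449 to 1471 and 179 to 472.7 CPM. At an unadjusted p under 0.05 in edgeR 5 of them were lower, where 6.22% of all genes were. *LUM* (-1.60 ± 0.40, adjusted p = 0.09556 in edgeR and 0.004784 in DESeq2) and *COL1A1* (-1.82 ± 0.49, adjusted p = 0.1228 in edgeR) were lower in every post-molt library. The sums of endothelial (442.7 to 546.8 and 382.8 to 452.9), macrophage (18.87 to 78.62 and 24.33 to 46.24), adipocyte (731.5 to 939.5 and 438.7 to 866) and smooth muscle markers (8621 to 16430 and 10600 to 11540) overlapped. *DES*, also a muscle fiber marker, made up most of the smooth muscle sum (16300 of 16430 CPM in pre-molt seal 5572). *LPL* made up most of the adipocyte sum (722.2 of 796.7 CPM there). All 7 tested adipocyte markers had a negative fold change. *CIDEC* was lower in every post-molt library (-2.29 ± 0.45, adjusted p = 0.0542 in edgeR and 0.0001741 in DESeq2). Of the 8 endothelial markers 4 were positive and 4 negative. Among them *KDR* was lower in every post-molt library (-1.45 ± 0.34, adjusted p = 0.08067 in edgeR and 0.003831 in DESeq2). Of the 6 tested macrophage markers 2 were positive and 4 negative. Among them *CD68* was higher in every post-molt library (2.15 ± 1.09, adjusted p = 0.504 in edgeR). Its nearest libraries were almost equal, with 1.691 CPM in post-molt seal 4448 and 1.689 CPM in pre-molt seal 5572, and pre-molt seal 5842 was at 0. The part of these differences in fiber type, connective tissue and other markers in the carrier values was not tested.

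No carrier or uncoupling protein gene passed the adjusted threshold of 0.05 in edgeR's quasi-likelihood test, out of 43 tested, where 0.349% of all genes passed. At an unadjusted p under 0.05, 2 members were higher post-molt (*SLC25A10* and *SLC25A51*) and 1 was lower (*SLC25A3*). These are 4.65% and 2.33% of the tested members, beside 5.2% and 6.22% of all genes, so the count of members does not exceed that of genes in general. DESeq2 gave an adjusted p under 0.05 to 1 member that was higher, *SLC25A10*, and to 1 that was lower, *SLC25A3*, where it called 3.07% of genes higher and 2.92% lower among those it adjusted. The 4 libraries of each group did not overlap for 2 members that were higher (*SLC25A10* and *SLC25A51*) and 2 that were lower (*SLC25A3* and *SLC25A21*), or 4.65% each way, against 4.04% and 5.11% of all genes.

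The fold changes of the family lay close to 0. Over the 43 tested members the median log2 fold change, post-molt over pre-molt, was 0.03, beside -0.04 over all genes, and 23 were positive and 20 negative. For 23 members the 95% interval of the fold change stayed within 1 log2 unit on either side of 0, so that a larger difference lies outside what the fit allows for them. The 6 tested members with a library at 0 (*SLC25A14*, *SLC25A18*, *SLC25A27*, *SLC25A35*, *SLC25A41* and *SLC25A48*) had the widest intervals. Among the other 37, the median was 0.11 and the values ran from -1.02 for *SLC25A21* to 0.95 for *SLC25A10*.

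**Figure D1:**
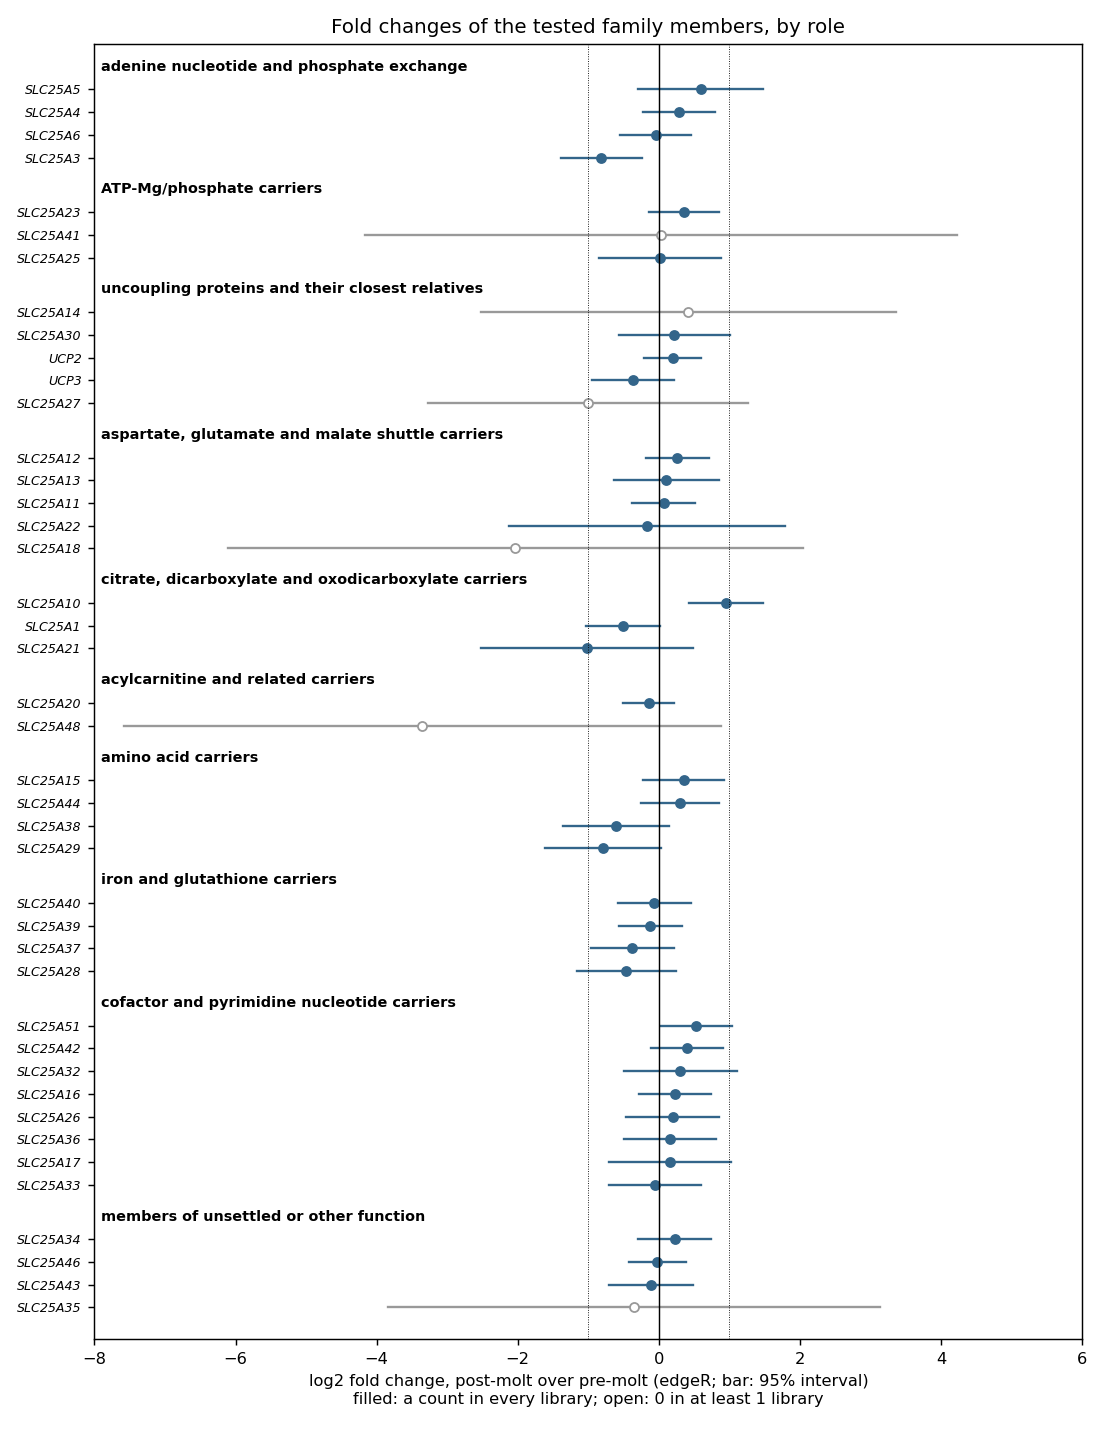
Log2 fold change, post-molt over pre-molt, of the tested members by role (1 of the 43 is not shown), with the edgeR estimate as a point and its 95% interval as a bar. Filled points are members with a count in every library and open points the 6 with a library at 0, and dotted lines mark a difference of 1 log2 unit. The intervals of *SLC25A10*, *SLC25A51* and *SLC25A3* do not reach 0.

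The adenine nucleotide carriers exchange matrix ATP for cytosolic ADP, and the phosphate carrier SLC25A3 imports the phosphate that ATP synthase needs. *SLC25A4*, the isoform of heart and skeletal muscle, had the largest count of the family, with 2200, 2426, 1620 and 1212 CPM in pre-molt seals 5572, 5842, 6762 and C497 and 1950, 2587, 2273 and 2278 CPM in post-molt seals 4448, 5572, 9678 and X410. The groups overlapped, and the log2 fold change was 0.29 ± 0.24 (SE; adjusted p = 0.7465). All values by library below are in this order of seals.

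*SLC25A3* read 1344, 2150, 1105 and 904.4 CPM pre-molt and 631.7, 855.5, 815.6 and 819.5 CPM post-molt. Every post-molt library lay below every pre-molt library, and pre-molt seal 5842 stood highest. The group means were 1376 ± 546.8 and 780.6 ± 100.8 CPM (SD, n = 4 each), with a log2 fold change of -0.82 ± 0.26 (SE), or 0.567 of the pre-molt level. The adjusted p was 0.2093 in edgeR, 0.1847 in limma-voom and 0.04717 in DESeq2. Without pre-molt seal 5842 the log2 fold change was -0.49 and the edgeR adjusted p 0.4406. Seal 5842 also had the highest sums of fast fiber (24250 CPM) and fibroblast markers (1471 CPM), whose part in its *SLC25A3* value was not tested. Between the libraries of seal 5572, which was biopsied early and late, the log2 difference was -0.65.

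*SLC25A5* and *SLC25A6*, the adenine nucleotide carriers of most other tissues, were read far less often. *SLC25A5* had 17.03, 15.15, 8.089 and 9.856 CPM pre-molt and 29.64, 19.66, 6.227 and 19.95 CPM post-molt, and seal 9678 post-molt was below all others while seal 4448 was above them (0.59 ± 0.41 on the log2 scale, adjusted p = 0.6673). Its fold change rested on these libraries, with 0.89 without post-molt seal 9678 (adjusted p = 0.331) and 0.29 without post-molt seal 4448 (adjusted p = 0.9128). *SLC25A6* had 71.43, 64.29, 66.94 and 62.01 CPM pre-molt and 44.85, 84.65, 47.33 and 79.87 CPM post-molt. The post-molt libraries of *SLC25A6* lay on both sides of the pre-molt ones, with a log2 fold change of -0.04 ± 0.23. The coding sequences of these isoforms are much alike, and reads that fit more than 1 place are not counted, so their levels are uncertain. *SLC25A31*, the testis isoform, was at 0 in all libraries, which allows up to 0.043 to 0.0968 CPM per library by a limit of 3 counts that covers counting error only.

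Set against each other within a library, the 2 most counted members differed between the groups. The ratio of *SLC25A4* to *SLC25A3* reads was 1.637, 1.128, 1.466 and 1.34 pre-molt and 3.087, 3.024, 2.787 and 2.78 post-molt, with a gap between the groups and little spread post-molt. On the log2 scale the means were 0.46 ± 0.23 and 1.54 ± 0.079 (SD, n = 4 each), a difference of 1.08, with p = 0.02857 in a two-sided exact permutation test over all divisions of the libraries, which is the smallest p it can give, and 0.08571 adjusted over the 3 ratios computed. This ratio was chosen after the values of both genes were seen, so the p describes and does not test it. Leaving out any 1 library gave differences of 0.98 to 1.16. The ratio does not depend on the scaling of the libraries, and it does not tell which of the 2 genes differed.

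**Figure D2:**
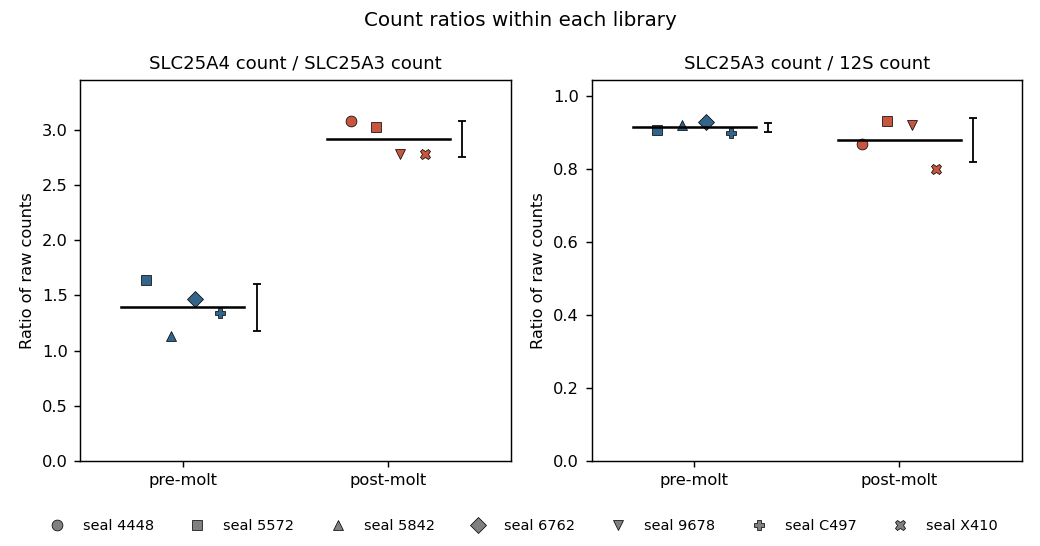
Ratio of raw counts within each library by group, with *SLC25A4* over *SLC25A3* on the left and *SLC25A3* over the row named 12S on the right (a name of the small mitochondrial ribosomal RNA, though the identity of the row was not verified). Points are libraries marked by seal, horizontal lines group means and bars SD (n = 4). The left ratio is 1.128 to 1.637 pre-molt and 2.78 to 3.087 post-molt, whereas the right one lies between 0.8004 and 0.9332 in all 8 libraries.

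The same shift shows in the make-up of the family's reads. The members together took 0.3918 to 0.5395% of all reads pre-molt and 0.4722 to 0.5562% post-molt. *SLC25A4* held 32.8 to 38.93% of the family's reads pre-molt and 45.5 to 47.66% post-molt, without overlap. *SLC25A3* held 23.78 to 33.53% and 15.25 to 17.11%, again without overlap. *UCP3* held 8.981 to 11.79% pre-molt and 5.522 to 10.3% post-molt. Shares of a whole are tied to each other, and these were looked at after the single genes.

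**Figure D3:**
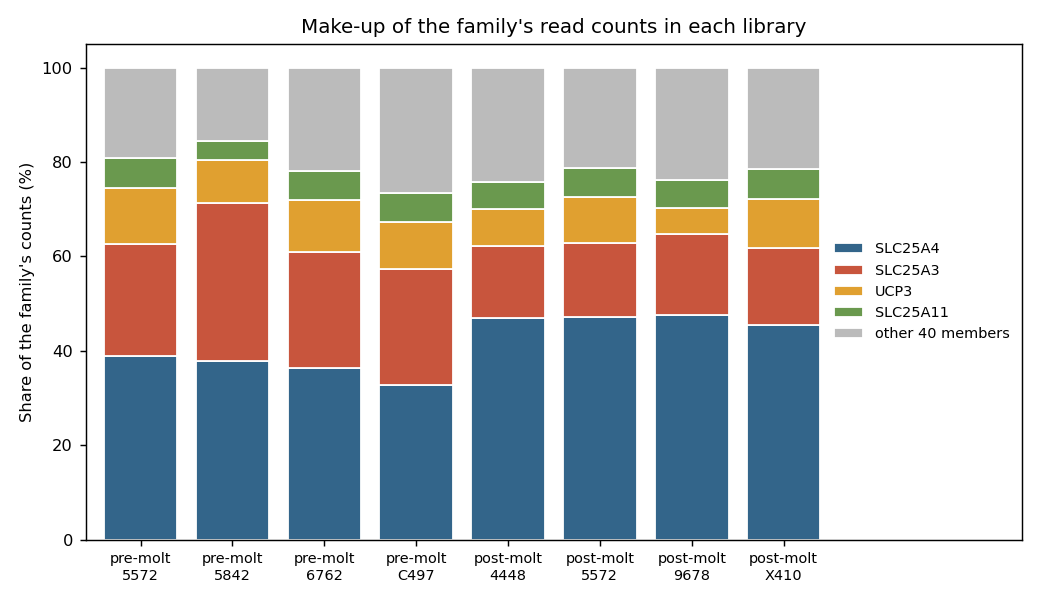
Share of the family's read counts (%) held by *SLC25A4*, *SLC25A3*, *UCP3*, *SLC25A11* and the other 40 members in each library, 1 bar per library. The *SLC25A4* part is at most 38.93% in the pre-molt bars and at least 45.5% in the post-molt bars.

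The ATP-Mg/phosphate carriers set the total adenine nucleotide content of the matrix, and most of them are regulated by calcium. A further carrier of this kind, *SLC25A24*, had no row under that symbol. Of the 3 members, 0 passed. *SLC25A23* averaged 43.67 ± 11.3 CPM pre-molt and 55.78 ± 9.546 post-molt, *SLC25A25* 10.74 ± 4.795 and 10.86 ± 3.097 CPM, and *SLC25A41* was below 1 CPM on average in both groups, with 3 libraries at 0.

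Of the uncoupling proteins, *UCP3* and *UCP2* were read and *UCP1* was not. *UCP1* had 0 counts in all 8 libraries, which allows up to 0.043 to 0.0968 CPM per library by the same limit of 3 counts. *UCP3* had 666.4, 575.9, 486.4 and 373.0 CPM pre-molt and 321.1, 534.0, 263.3 and 515.4 CPM post-molt. Post-molt seals 4448 and 9678 lay below all pre-molt seals and the other 2 lay within their range. The log2 fold change was -0.36 ± 0.27 with a 95% interval of -0.95 to 0.22 (adjusted p = 0.6988), and in seal 5572 the difference was -0.32.

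*UCP2*, which is broadly expressed, had 110.2, 107.5, 82.36 and 102.8 CPM pre-molt and 114.9, 141.3, 99.48 and 106.3 CPM post-molt. The groups overlapped, with a log2 fold change of 0.20 ± 0.19 and a 95% interval of -0.20 to 0.60 (adjusted p = 0.7905). The log2 ratio of *UCP3* to *UCP2* reads averaged 2.36 ± 0.34 pre-molt and 1.77 ± 0.41 post-molt (SD, n = 4 each), a difference of -0.59 with a two-sided exact permutation p = 0.08571 (0.1286 adjusted over 3 ratios). This ratio too was chosen after the values were seen, so its p describes and does not test it. The closest relatives of the uncoupling proteins, *SLC25A14*, *SLC25A27* and *SLC25A30*, averaged at most 8.619 CPM in either group and did not pass, with adjusted p of 0.8192 and above.

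**Figure D4:**
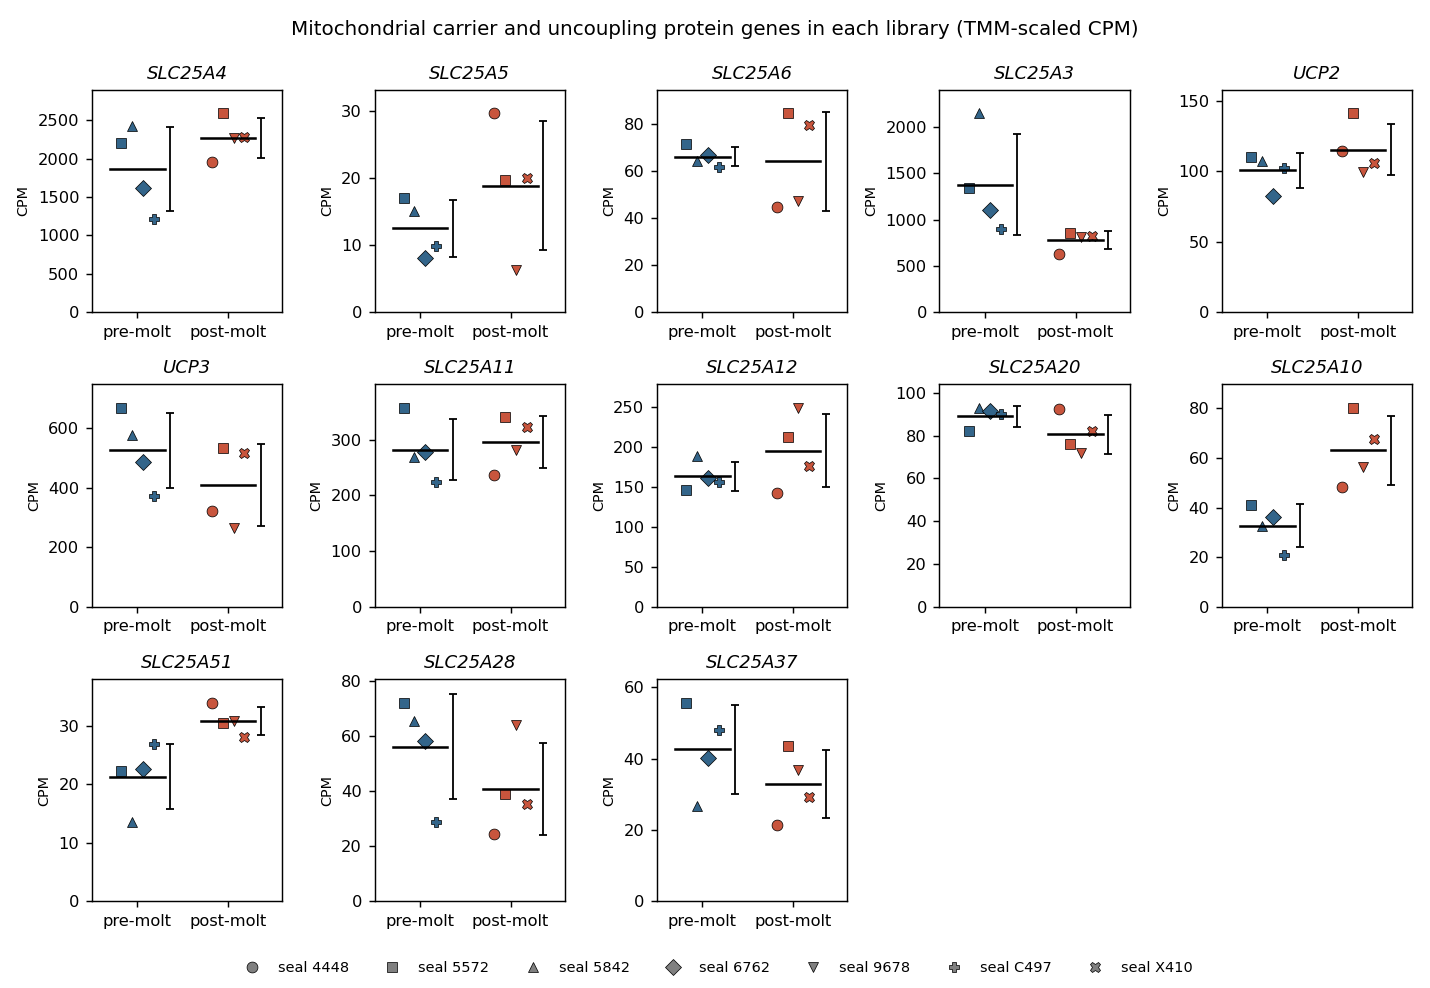
TMM-scaled CPM in each library of 13 members, with pre-molt libraries in blue and post-molt libraries in red. Points are libraries marked by seal, lines group means and bars SD (n = 4), and each axis starts at 0. *SLC25A10* and *SLC25A51* are higher and *SLC25A3* is lower in every post-molt library than in every pre-molt library, and the other 10 overlap.

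The dicarboxylate carrier *SLC25A10* had the smallest p of the family. It exchanges malate or succinate for phosphate and is also active in liver and fat. Its levels were 41.13, 32.37, 36.31 and 20.74 CPM pre-molt and 48.11, 80.07, 56.43 and 67.59 CPM post-molt. All post-molt libraries were above all pre-molt ones, and the gap between the nearest, seal 5572 pre-molt and seal 4448 post-molt, was small. The means were 32.63 ± 8.703 and 63.05 ± 13.87 CPM (SD, n = 4 each), a log2 fold change of 0.95 ± 0.24 (SE) or 1.93 times the pre-molt level, with a 95% interval of 0.42 to 1.48. The adjusted p was 0.1052 in edgeR, 0.08764 in limma-voom and 0.007845 in DESeq2. In seal 5572 the log2 difference between its libraries was 0.96. With each library left out in turn the log2 fold change stayed between 0.79 and 1.08.

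The other members of this group were lower on average. The citrate carrier *SLC25A1*, which exports citrate for fatty acid synthesis, averaged 17.79 ± 2.631 CPM pre-molt and 12.53 ± 2.223 CPM post-molt, with a log2 fold change of -0.51 ± 0.24 (adjusted p = 0.4536). The oxodicarboxylate carrier *SLC25A21*, which carries products of lysine breakdown, averaged 2.844 ± 0.6674 and 1.404 ± 0.6702 CPM. Its libraries did not overlap, but at these low counts its log2 fold change was -1.02 ± 0.69 (adjusted p = 0.6641).

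The carriers of the malate-aspartate shuttle overlapped between the groups. *SLC25A11*, which exchanges malate for 2-oxoglutarate, had 356.7, 268.7, 278.5 and 224.5 CPM pre-molt and 236.7, 340.3, 281.4 and 323.2 CPM post-molt. The groups covered nearly the same range, with a log2 fold change of 0.07 ± 0.20 (adjusted p = 0.9519). *SLC25A12*, the calcium-regulated aspartate/glutamate carrier of muscle and brain, had 146.4, 188.7, 161.1 and 156.4 CPM pre-molt and 142.7, 212.8, 248.8 and 176.6 CPM post-molt, and seal 4448 post-molt was the lowest of all while seal 9678 was the highest. Its log2 fold change was 0.26 ± 0.21 (adjusted p = 0.7272). The liver form *SLC25A13* averaged 7.371 ± 2.7 and 7.942 ± 1.658 CPM, and the glutamate carriers *SLC25A18* and *SLC25A22* at most 1.528 CPM in either group.

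*SLC25A20*, the carrier through which acylcarnitines enter the matrix, was the steadiest member. It had 81.99, 92.89, 91.34 and 90.00 CPM pre-molt and 92.66, 76.04, 71.73 and 82.25 CPM post-molt. The post-molt values reached lower but overlapped the pre-molt range. Its spread within groups, an SD of 0.13 on the log2 scale, was the smallest of the 43 tested members and lay at percentile 0.9 of all genes tested. The log2 fold change was -0.14 ± 0.17, with a 95% interval of -0.51 to 0.22. *SLC25A45*, a relative, had 92 reads in seal 4448 and 73 in seal 9678, both post-molt, and 0 in the other 6 libraries. The post-molt libraries of seals 4448 and 9678 had the most tested genes at 0 (1328 and 2117). *SLC25A45* did not pass the filter on low counts. *SLC25A48* was at 0 in 3 libraries and averaged 1.045 ± 0.8147 CPM pre-molt and 0.1011 ± 0.144 CPM post-molt (adjusted p = 0.5759).

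The iron carriers mitoferrin-1 (*SLC25A37*) and mitoferrin-2 (*SLC25A28*) bring iron into the matrix for heme and iron-sulfur clusters, and mitoferrin-2 is the form of most non-erythroid tissues. *SLC25A28* had 72.19, 65.61, 58.39 and 28.76 CPM pre-molt and 24.62, 39.13, 64.05 and 35.55 CPM post-molt. Pre-molt seal C497 sat with the lower post-molt seals and post-molt seal 9678 with the pre-molt ones (-0.46 ± 0.32 on the log2 scale, adjusted p = 0.6729). *SLC25A37* had 55.71, 26.66, 40.13 and 48.17 CPM pre-molt and 21.48, 43.69, 36.85 and 29.33 CPM post-molt, overlapping throughout (-0.38 ± 0.27, adjusted p = 0.6855). With *SLC25A39* and *SLC25A40*, the carriers for glutathione import, all 4 of this group had a negative fold change, from -0.46 to -0.07, and 0 passed, and the sign of *SLC25A40* turned in 3 of 16 alternatives. The erythroid markers summed to at most 1.237 CPM pre-molt and 3.44 CPM post-molt.

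Of the 9 carriers of cofactors and pyrimidine nucleotides 0 passed in edgeR or DESeq2, and 1 had an unadjusted p under 0.05. Their fold changes had a median of 0.23 and 8 of 9 were positive, where 46.4% of all genes tested were, and most of their intervals included 0. *SLC25A51*, which imports NAD into the matrix, had 22.33, 13.55, 22.71 and 26.85 CPM pre-molt and 33.98, 30.52, 30.91 and 28.10 CPM post-molt. All post-molt libraries were above all pre-molt ones, the nearest pair being seal X410 post-molt and seal C497 pre-molt. The log2 fold change was 0.53 ± 0.23 (SE; adjusted p = 0.3879 in edgeR, 0.1869 in DESeq2), and 0.39 without pre-molt seal 5842. The carriers linked to coenzyme A, *SLC25A42* and *SLC25A16*, averaged 28.91 ± 8.715 and 38.15 ± 6.479 CPM, and 15.97 ± 3.802 and 18.74 ± 1.529 CPM. *SLC25A26*, for S-adenosylmethionine, averaged 8.952 ± 0.5776 and 10.24 ± 3.404 CPM, and *SLC25A32*, linked to folate and FAD, 6.827 ± 1.623 and 8.435 ± 3.318 CPM. The pyrimidine nucleotide carriers *SLC25A33* and *SLC25A36* and the peroxisomal carrier *SLC25A17* had log2 fold changes of -0.05, 0.16 and 0.15.

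Of the 4 amino acid carriers, the ornithine carrier *SLC25A15* (0.35 ± 0.26) and the branched-chain amino acid carrier *SLC25A44* (0.30 ± 0.25) had positive log2 fold changes. The glycine carrier *SLC25A38*, which serves heme synthesis (-0.61 ± 0.35), and the basic amino acid carrier *SLC25A29* (-0.80 ± 0.38, adjusted p = 0.4584) had negative ones. The members of unsettled or other function, *SLC25A34*, *SLC25A35*, *SLC25A43* and *SLC25A46*, the last a protein of the outer membrane, had values from -0.35 to 0.22.

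Genes that work with the carriers were read from the same fit. There, 5.2% of all genes were higher and 6.22% lower post-molt at an unadjusted p under 0.05. Among 18 tested PPAR and PGC-1 regulators and targets, which respond to fatty acids and fasting, 1 passed. This was *PDK4*, the kinase that holds back pyruvate dehydrogenase, which rose post-molt, with means of 630.6 ± 236.4 and then 2342 ± 884 CPM, a log2 difference of 1.89 ± 0.35 (adjusted p = 0.04318). *UCP3*, another gene known as a PPAR target, did not pass. At an unadjusted p under 0.05, *ACADL* (0.40 ± 0.18) was also higher in this list, and *PPARD* (-0.94 ± 0.33) and *FABP3* (-0.82 ± 0.36) were lower.

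In the carnitine shuttle and fatty acid entry list, 0 of 14 passed, the median was 0.04, and the acyl-CoA synthetases *ACSL3* (0.60 ± 0.22, adjusted p = 0.2921) and *ACSL5* (0.86 ± 0.37, adjusted p = 0.383) had an unadjusted p under 0.05. Of 13 other membrane transport genes, 0 passed, with a median of 0.05. The outer membrane channel *VDAC2* had the smallest p, with means of 340.3 ± 76.56 CPM in the pre-molt libraries and 222.7 ± 41.06 CPM in the post-molt libraries (-0.61 ± 0.22, adjusted p = 0.2619). Of 9 genes of mitochondrial calcium uptake, the pore *MCU* alone had an unadjusted p under 0.05, with 93.59 ± 24.97 and 47.83 ± 15.19 CPM (-0.97 ± 0.27, adjusted p = 0.1473 in edgeR and 0.02554 in DESeq2).

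Among 11 redox shuttle enzymes 10 fold changes were negative, as were 53.6% of all genes tested, with a median of -0.32, and 0 passed. *GPD2*, of the glycerol phosphate shuttle (-0.54 ± 0.19, adjusted p = 0.2669), and glutamate dehydrogenase *GLUD1* (-0.61 ± 0.23, adjusted p = 0.2985) were lower at an unadjusted p under 0.05. In the heme and iron-sulfur cluster list the median over 25 genes was -0.02 and 0 passed in edgeR. Ferredoxin reductase *FDXR* came nearest, averaging 21.38 ± 6.345 CPM in the pre-molt libraries against 8.973 ± 1.592 CPM in the post-molt libraries (-1.25 ± 0.27, adjusted p = 0.06793 in edgeR and 0.001447 in DESeq2), and *BOLA3* (-0.59 ± 0.23) and *HSCB* (-0.78 ± 0.34) were lower at an unadjusted p under 0.05.

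The nuclear genes of complexes I, II and V, the machinery that uses the ADP and phosphate, had 34 of 40 fold changes negative, a median of -0.32 and 0 calls (2, both lower, in DESeq2), where 53.6% of all genes tested were negative, beside the median of 0.03 of the carriers themselves. At an unadjusted p under 0.05, which 6.22% of all genes met in the lower direction, there were 9 lower (among them *ATP5G2*, *NDUFV1*, *ATP5E*, *NDUFV2*, *NDUFA2*, *ATP5D*, *SDHB* and *NDUFB1*) and 1 higher (*NDUFA5*, 0.68 ± 0.26). *ATP5G2*, a subunit of the ring of ATP synthase, had the lowest p, with -1.13 ± 0.27 and an adjusted p of 0.08067.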

How the data were processed

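Of the muscle biopsies sequenced, the authors kept 8 libraries (7 seals). They used bcl2fastq 2.20 for base calls, STAR for alignment against a Hawaiian monk seal assembly, and DESeq2 1.18.1 under R 3.4.3, per the labels and the study's methods. The deposited values are raw read counts per gene, not normalized. Uniquely aligned reads are counted, so near-identical copies lose reads. The strand setting is not given in the sources used here, so antisense overlaps cannot be told apart. Of 24349 rows, 7 without a gene name (0.01154 to 0.01531% of counts) were left out. Chi-square divided by its degrees of freedom was at least 107 in all 28 pairs of libraries, so none was a copy.

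Genes were filtered with filterByExpr (minimum count 10, minimum total 15), leaving 14315 of 19404 with a count, and 43 of 44 members. Post-molt was compared with pre-molt over all genes with edgeR 4.0.16 (TMM factors, quasi-likelihood, R 4.3.3) and Benjamini-Hochberg adjustment at 0.05. SEs were derived from the F statistic. DESeq2 1.42.0 (which gave 8659 genes no adjusted p) and limma-voom 3.58.1 were alternatives, with RLE and upper-quartile factors, the 20 most abundant genes removed, no filter, and libraries left out. The edgeR fit was tested on simulated data.

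The members and lists were chosen with earlier results of these data known. Values by library are given for members with an unadjusted p under 0.05 and for *UCP1*, *UCP2*, *UCP3*, *SLC25A3*, *SLC25A4*, *SLC25A5*, *SLC25A6*, *SLC25A11*, *SLC25A12*, *SLC25A20*, *SLC25A28* and *SLC25A37*. In lists of related genes those with an unadjusted p under 0.05 are named. *SLC25A45*, and genes outside these lists, were singled out after their values were seen. The values of 1 member and of 1 related gene, both included in the counts, are not reported here.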

Additional observations from a re-analysis of the deposited data

Results flagged for a closer look

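For each tested member the highest and lowest library of a group was set against the other 3 by Dixon's test at 95%. Of 86 groups, 2 held such a library, where chance marks about 1 in 20. *SLC25A14*, a relative of the uncoupling proteins, had 2.401 CPM in pre-molt seal C497 and 0.69 to 0.7611 CPM in the other pre-molt seals. *SLC25A25*, a calcium-regulated ATP-Mg/phosphate carrier, had 6.22 CPM in post-molt seal 4448 and 12.15 to 12.64 CPM in the other post-molt seals.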

How the results depend on the processing

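No paired analysis was possible because only 1 seal has a library at both times. With 4 libraries per group, fold changes of 1 log2 unit can be missed, and a missed threshold does not show that levels were alike. Of the 43 tested members, 0 were called in edgeR and limma-voom under every setting. *SLC25A45* was not among the 43 and is left out of these counts, and DESeq2 gave it an unadjusted p of 0.003146 but no adjusted p. DESeq2 called 1 of the 43 higher and 1 lower, and gave 5 of them an unadjusted p under 0.05 beside 3 in edgeR. That count was 2 to 6 with each library left out (6 without pre-molt seal C497, 5 without post-molt seal 9678) and 5 without pre-molt seal 5842 and post-molt seal 9678, the libraries with the smallest uniquely mapped share of each group, where 0 genes of the whole table were called. The share of all genes at that unadjusted p was computed for the main fit only, so these counts cannot be set against it. The median log2 fold change of the members ran from -0.04 (limma-voom) to 0.09.

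*SLC25A10* and *SLC25A3* kept their direction and an unadjusted p under 0.05 in all 16 alternatives, with edgeR, voom and DESeq2 adjusted p of 0.007845 to 0.3141 and 0.04717 to 0.5415, and *SLC25A51* kept its direction in 16 and that p in 8. *SLC25A3* ran from -0.97 to -0.49 with each library left out. Of the 43 tested members, the sign of 29 held in all alternatives and that of 14 turned in at least 1. Of these 14, 3 had a library at 0 (*SLC25A14* from 0.42 to as low as -2.11, *SLC25A35* and *SLC25A41*), and the other 11 were within 0.17 of 0. Of the members given by library, 2 turned: *SLC25A11* ranged from -0.03 to 0.20 with each library left out (-0.0265 without pre-molt seal C497 and -4e-04 without post-molt seal 5572), and *SLC25A6* from -0.20 to 0.10 (0.098 without post-molt seal 4448, 0.0808 without post-molt seal 9678) and was 0.0893 without seals 5842 and 9678. *SLC25A5* ran from 0.29 to 1.02, with an unadjusted p under 0.05 in 2 alternatives, without post-molt seal 9678 and without that seal and pre-molt seal 5842. The cause was not tested.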

Other observations

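The genes whose TMM-scaled levels moved most like *SLC25A3* over the 8 libraries, by Pearson's r among 14314 genes, were looked up after its values were seen. They were *NDUFV2*, a complex I subunit (r = 0.996), a row named 12S (r = 0.9915), a name of the small mitochondrial ribosomal RNA whose identity here was not verified, *BOLA3*, of iron-sulfur cluster assembly (r = 0.9912), and the ribosomal protein genes *RPL14* (r = 0.9904) and *RPL4* (r = 0.9896). The libraries share their groups and depth, and pre-molt seal 5842 is highest for *SLC25A3*. Without it the same genes held ranks 2, 9, 7, 6 and 10, and the first was *NPM3* (r = 0.9905). The reads of *SLC25A3* were 0.8004 to 0.9332 of those of that row in every library, while the row itself ran from 727.8 to 2335 CPM.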
